A study of Mus musculus with 2 samples.

Results

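The mitochondrially encoded genes are those carried by the mitochondrial chromosome, and they were taken here as every row of the transcriptome matrix whose symbol starts with mt-. There were 13 such rows of 31192, and all 13 are protein-coding. GENCODE M21 (mouse build GRCm38) annotates 37 genes on this chromosome, of which the 13 coding genes had a row, while the 2 ribosomal RNA genes and the 22 transfer RNA genes were not analysed here. The balance described below is therefore among coding transcripts. The data are 1 transcriptome library and 1 hashtag library from hearts of Cdh5-CreERT2;REFLEX mice that received tamoxifen and had transverse aortic constriction (TAC), an operation that narrows the aorta and overloads the heart with pressure. Cdh5-CreERT2 is a Cre recombinase that tamoxifen activates and that the regulatory sequence of the endothelial cadherin gene drives. CD45-positive GFP-positive, CD45-positive GFP-negative, CD45-negative GFP-positive and CD45-negative GFP-negative cells were sorted and pooled, and 20000 cells were loaded on the BD Rhapsody system. No unoperated or untreated animals are among the groups used here, and the number and age of the animals were not given in the sources used here.

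Mitochondrial DNA is a small circle whose strands are copied into long RNAs by the polymerase POLRMT with the factor TFAM, and these RNAs are then cut into single messenger, ribosomal and transfer RNAs. The coding genes specify core subunits of respiratory complexes I, III and IV and of ATP synthase (complex V), and all their partners in these complexes come from nuclear genes. In single-cell work the share of mitochondrial transcripts in a cell is commonly used as a measure of cell quality, and cardiac muscle is among the tissues richest in them. Mature neutrophils are known to rely mainly on glycolysis and to hold few mitochondria.

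The matrix held 878 cells with 28407 to 706332 estimated counts each (median 77171). Each cell name begins with the authors' tag call, which is A951 for 331 cells, A952 for 134, A953 for 114, A965 for 247 and doublet for 52. Which tag marked which sorted fraction was not given, and the names are therefore described as names only. Clusters made without the mt- rows were named from markers, and 10 clusters gave neutrophil-like (288 cells), monocyte-like (202), B cell-like (161), T cell-like (104), conventional dendritic-like (31), macrophage-like (30) and NK cell-like (27) classes and 1 unnamed cluster of 35 cells. No cluster was named from the markers of endothelial cells, fibroblasts or cardiomyocytes, although CD45-negative cells were part of the pool. Cluster 8, 121 of the neutrophil-like cells, passed 7 of 8 neutrophil markers but also 4 of 12 cardiomyocyte markers, and the NK cell-like cluster also passed 3 T cell markers (Trbc2, Cd28 and Lck). With 1 library there are no replicates and no tests across animals; intervals given below are exact 95% intervals that cover counting error only, and they are too narrow if the counts are reads and not molecules.

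Several mt- rows share their sequence with rows of the nuclear genome, and this sets how exactly their counts can be read. A BLAST search of the 13 coding sequences against all GENCODE M21 transcripts found 7 rows of the matrix that were at least 99% identical to a mitochondrial gene, all of them annotated as unprocessed pseudogenes on chromosome 1. The gene mt-Atp6, a membrane subunit of ATP synthase, and the chromosome 1 row Gm10925 were identical over all 678 compared bases. The mt-Co1 gene, the catalytic subunit of cytochrome c oxidase, and Gm29216 differed at 1 of 483 bases, whereas Gm13340 on chromosome 2 differed from mt-Co1 at 37 of 1545 bases. Windows of 120 bases from these GENCODE M21 transcripts, 5′ to 3′, are shown as examples of an identical, a nearly identical and a more distant nuclear row. Capitals mark the bases of a nuclear row that differ from the mitochondrial gene.
mt-Atp6: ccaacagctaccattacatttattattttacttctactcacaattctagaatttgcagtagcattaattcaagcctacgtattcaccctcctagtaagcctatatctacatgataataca
Gm10925: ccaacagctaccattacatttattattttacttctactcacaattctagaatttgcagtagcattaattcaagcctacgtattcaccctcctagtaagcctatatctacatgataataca
mt-Co1: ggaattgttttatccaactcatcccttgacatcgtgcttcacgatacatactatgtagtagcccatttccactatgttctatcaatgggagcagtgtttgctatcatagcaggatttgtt
Gm29216: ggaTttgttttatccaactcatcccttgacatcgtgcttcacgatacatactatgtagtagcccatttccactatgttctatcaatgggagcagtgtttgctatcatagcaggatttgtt
Gm13340: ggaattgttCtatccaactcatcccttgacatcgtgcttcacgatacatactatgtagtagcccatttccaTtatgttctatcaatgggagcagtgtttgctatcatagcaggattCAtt

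Rows identical over nearly the whole gene had almost the same counts as the gene. Gm10925 summed to 165706 estimated counts, or 97.3 per 100 counts of mt-Atp6 (170386). Gm28437 had 150266 counts against 150068 of mt-Co3, and Gm28661 had 129657 against 130269 of mt-Co2, both of them subunits of cytochrome c oxidase. Gm10222 reached 82.8 per 100 counts of mt-Nd4l, a small membrane subunit of complex I. Rows that match part of a gene had fewer. Gm29216, which matches the last 483 bases of mt-Co1, had 46368 counts (7.55 per 100), and Gm28439, which matches the first 876 bases of mt-Nd4, had 2689 counts (0.612 per 100). Gm13340, the chromosome 2 row shown above, had 622 counts against 614376 of mt-Co1. The 7 rows together held 527531 counts, or 14.7 per 100 mt- counts. In the matrix, 99.1% of the cells with a count of mt-Nd6 and 93.4% of those of mt-Nd1 had a whole number (within 1e-06), against 0.114% for mt-Atp6 and 0% for mt-Co1. The split did not follow the nuclear rows in every gene. The percent was 1.71 for mt-Atp8, which none of the 7 rows matches, and 9.79 for mt-Co2, which Gm28661 matches. These 7 rows were not added to the mt- genes in the values below, unless that is said.

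**Figure D1:**
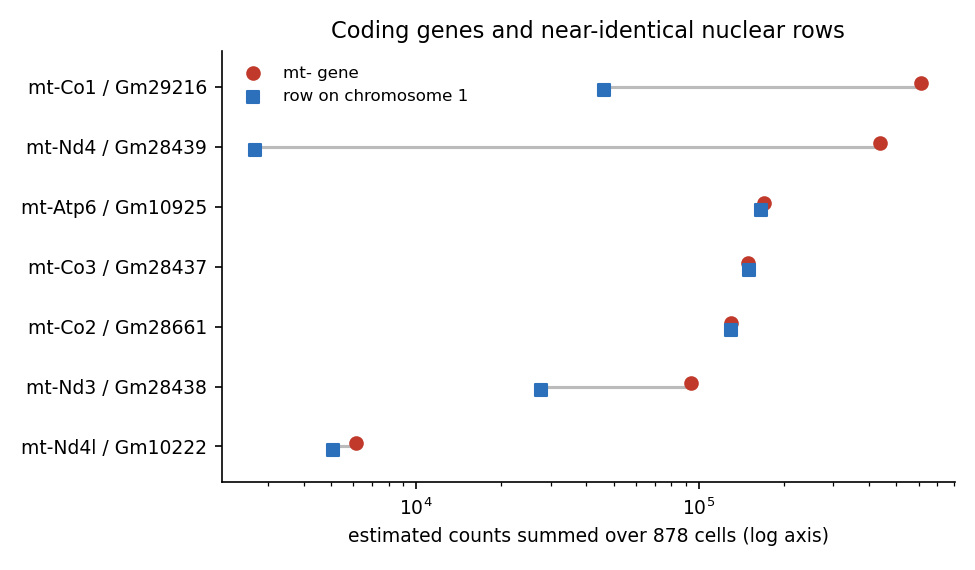
Estimated counts summed over 878 cells (log axis) for the 7 mitochondrial coding genes with a row on chromosome 1 that is at least 99% identical (red circles, the mt- gene; blue squares, the nuclear row). The symbols of mt-Atp6, mt-Co3 and mt-Co2 nearly coincide with those of their copies, while Gm29216 and Gm28439 lie far below mt-Co1 and mt-Nd4.

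Gm28438, which is 99.7% identical to mt-Nd3 over 345 bases, was the copy whose ratio to its gene varied most, of these 7, over 7 ranges of the mitochondrial share of the cell. Over all cells it had 27757 counts against 93800 of mt-Nd3 (29.6 per 100). In neutrophil-like cells with a mitochondrial share of at most 1%, it had 86.7 per 100 counts of mt-Nd3 and was above mt-Nd3 in 32 of 95 cells. Over all classes it had 80.0 per 100 in cells of at most 1%, and 10.5 per 100 in the 12 cells over 50%, where it was above mt-Nd3 in none. Gm10925 kept between 96.2 and 97.6 per 100 counts of mt-Atp6 in each of the 7 ranges of the share.

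The mitochondrial share of a cell is its summed mt- counts as a percent of all its counts, and no limit on it was applied. Over the 878 cells the median was 2.76%, with quartiles of 1.65% and 3.99%, and single cells ran between 0.125% and 89.2%. The 3584690 mt- counts were 3.52% of all counts, and a cell had a median of 2643 of them. Of all cells, 151 were over 5% (17.2%, interval 14.8 to 19.9), 63 were over 10% and 21 were over 25%, whereas 105 were at or under 1%. Near the limits, 25 cells lay between 4.5% and 5.5%. Adding the 7 nuclear rows raised the percent of cells over 5% to 20.5%.

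Most classes had narrow distributions with medians between 1.62% and 3.32%, and neutrophil-like cells spread far wider in both directions. In neutrophil-like cells the median share was 2.43%, with quartiles of 0.767% and 6.32%, and 91 of 288 were over 5% (31.6%, interval 26.3 to 37.3). They also made up 95 of the 105 cells at or under 1%. In B cell-like cells the median was 3.32% (quartiles 2.81% and 3.85%), and 11 of 161 were over 5% (6.83%, interval 3.46 to 11.9). T cell-like cells had a median of 3.05%, and 5 of 104 were over 5% (4.81%). Monocyte-like cells had a median of 1.98% with 12 of 202 over 5% (5.94%), macrophage-like cells 1.94% with 3 of 30, and NK cell-like cells 1.87% with 1 of 27. The median was lowest in conventional dendritic-like cells, at 1.62%, and none of their 31 cells was over 5%, which allows a percent of up to 11.2. Among monocyte-, macrophage-, NK cell- and conventional dendritic-like cells the quartile ranges overlapped.

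**Figure D2:**
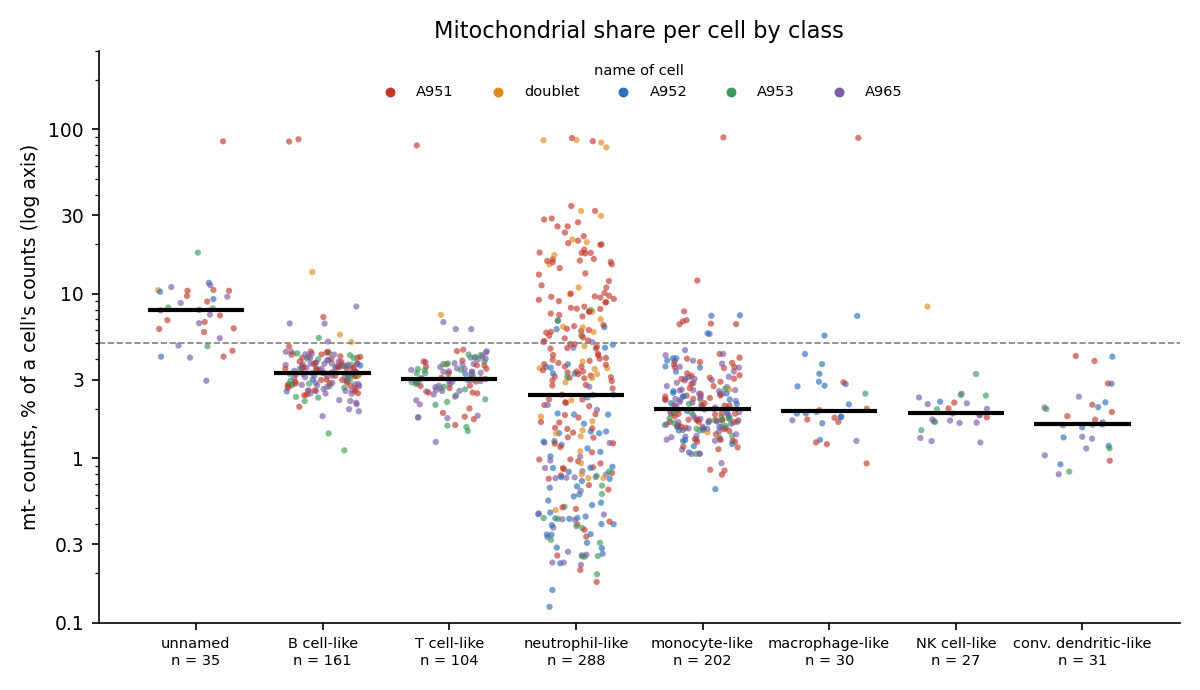
Mitochondrial share of each of the 878 cells (percent of its counts, log axis) by class, coloured by the name of the cell; horizontal lines are medians and the dashed line marks 5%. Neutrophil-like cells run between 0.125% and 88.4%, and the unnamed cluster has the highest median, 7.99%.

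The unnamed cluster had the highest median share of the clusters. Its 35 cells had a median of 7.99% (quartiles 5.98% and 10.4%), and 28 of them were over 5% (80%, interval 63.1 to 91.6). No marker list fitted it, and its leading genes, ranked without the mt- rows, were Plcb1, Fnip2, Vav3, Sik3 and Cmip. It was also the cluster richest in Malat1, a long RNA kept in the nucleus: the median was 17357 CPM (counts per 1000000, here of the non-mitochondrial counts), against 2305 CPM over all cells. Whether the content of nuclear RNA has a part in its share was not tested. At a clustering resolution of 1.5, the unnamed cells were 55.3% over 5%, and at 0.5 these cells joined the macrophage-like class.

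Cells over 25% fell into 2 sets with no cell between 34.1% and 77.5%. The lower set held 9 cells of 25.7% to 34.1%, all neutrophil-like, and their median of 49091 non-mitochondrial counts was near the 51905 of the cells of 10% to 25%. The upper set held 12 cells of 77.5% to 89.2%. Their total counts (46701 to 81799) lay within the range of other cells, while their non-mitochondrial counts were 5455 to 11734 (median 7779), below the lowest cell of any other range (26646). Because of this, their class names rest on few counts: 6 were called neutrophil-like, 2 B cell-like and 1 each T cell-, monocyte-, macrophage-like and unnamed. These 12 cells held 15.8% of all mt- counts in the library. Of the 21 cells over 25%, 15 were named A951 and 6 doublet, and none carried another name.

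Over all cells, cardiomyocyte markers were higher in the ranges of the share above 5%, and the nuclear RNA Malat1 was low in the cells over 50%. The 12 cardiomyocyte markers summed to 43.0 CPM of non-mitochondrial counts in cells at or under 1%, 34.3 at 1% to 2%, 54.3 at 2% to 5%, 192 at 5% to 10%, 357 at 10% to 25%, 1019 at 25% to 50% and 4212 over 50%. The last step depends on the denominator, because cells over 50% had few non-mitochondrial counts. In CPM of all counts the sum was 719 at 25% to 50% and 629 over 50%. The median cell had 51 and 23.5 counts of these markers. Within neutrophil-like cells the sum was higher from 1% on: 50.2, 211, 259, 299 and 412 CPM in the ranges up to 25%. In all other cells it was 25.6, 20.8, 32.4, 76.6 and 196 CPM in these ranges. At 25% to 50% Myh6, Myh7, Ttn and Nppa were at 0, and over 50% all but Myh7 were detected. In single cells over 50% the markers had 0 to 105 counts, and 1 of the 12 cells had none. Over all cells, Malat1 followed no steady course below 25%: its median was 3652 CPM of non-mitochondrial counts in cells of at most 1%, 1667 at 1% to 2%, 2305 at 2% to 5%, 3666 at 5% to 10%, 3059 at 10% to 25%, 1578 at 25% to 50% and 138 over 50%. The classes differed in this. In cells other than neutrophil-like ones the Malat1 median rose over the ranges up to 25%: 1271, 1436, 2372, 7746 and 18507 CPM. In neutrophil-like cells it was 3788, 2571, 1850, 1942 and 2264 CPM in the same ranges. Ptprc, which encodes the leukocyte antigen CD45, had no count in 7 of the 12 cells over 50%. The part of cardiac muscle RNA and of lost nuclear or cytoplasmic RNA in these values was not tested.

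**Figure D3:**
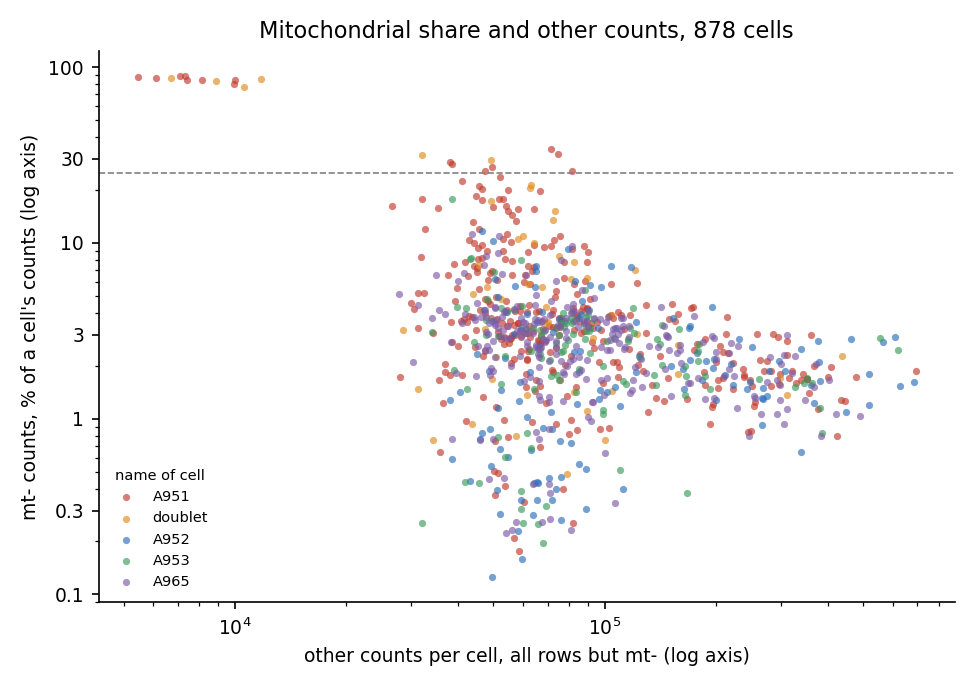
Mitochondrial share (percent of a cell's counts, log axis) against all its other counts (log axis) for 878 cells, coloured by the name of the cell; the dashed line marks 25%. The 12 cells over 50% lie apart at 5455 to 11734 other counts, all named A951 or doublet, and no cell lies between 34.1% and 77.5%.

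By name, shares were highest in doublet-named and A951-named cells. Doublet-named cells had a median of 4.09%, with 24 of 52 over 5% (46.2%, interval 32.2 to 60.5). A951-named cells had a median of 3.23%, and 92 of 331 were over 5% (27.8%, interval 23.0 to 33.0). The median was 1.78% for A952, 2.63% for A953 and 2.59% for A965, and of these 495 singly named cells together 35 were over 5% (7.07%, interval 4.97 to 9.70).

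The difference between names lay mainly in the neutrophil-like class. Neutrophil-like cells named A951 had a median of 4.64% (quartiles 1.91% and 9.69%, 142 cells), against 0.850% in those named A952 (60 cells), 0.433% in A953 (19) and 0.762% in A965 (29). Over 5% were 66 of the 142 A951-named cells (46.5%, interval 38.1 to 55.0), against 7 of the 108 neutrophil-like cells with another single name (6.48%, interval 2.65 to 12.9). Doublet-named neutrophil-like cells had a median of 4.34%, with 18 of 38 over 5%. The distributions overlapped, since A951-named neutrophil-like cells began at 0.177% and those with another single name ended at 7.96%. Both neutrophil-like clusters showed the difference. In cluster 4, led by Ngp, Retnlg and Camp, granule and maturation genes, the medians were 4.15% in A951-named cells and 0.716% in the other singly named cells. In cluster 8, led by Il23a, Acod1 and Gpr84, genes of activated myeloid cells, they were 5.26% and 0.853%. Cardiomyocyte markers were higher in cluster 8 as well: their sum was 345 CPM of non-mitochondrial counts in its cells, against 47.0 CPM in all other cells, and Tnnt2, Actc1, Myl2 and Mb passed the marker limits. Among cells of at most 5% the sum was 234 CPM in cluster 8, against 34.2 CPM in the others, and Tnnt2 and Mb passed. In cluster 4 the sum was 146 CPM, against 59.2 CPM in all other cells, and no cardiomyocyte marker passed. The part of this RNA in the shares was not tested.

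**Figure D4:**
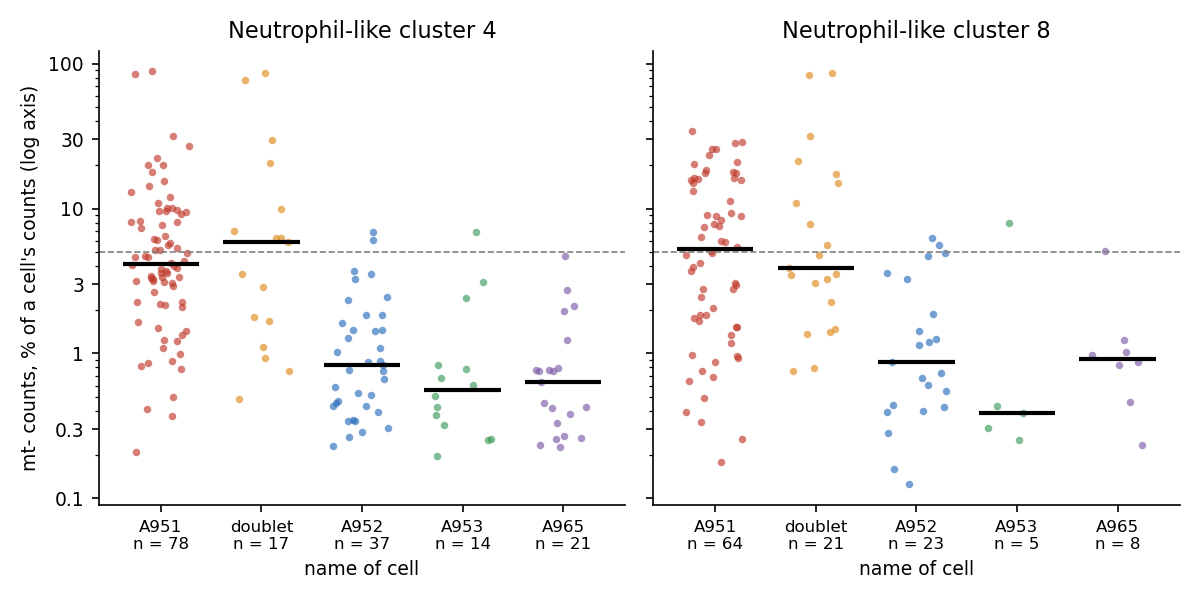
Mitochondrial share of neutrophil-like cells (percent of a cell's counts, log axis) by the name of the cell in cluster 4 (left) and cluster 8 (right); horizontal lines are medians and the dashed line marks 5%. In both clusters the medians of A951-named cells (4.15% and 5.26%) and doublet-named cells (5.86% and 3.87%) lie above those of A952-, A953- and A965-named cells.

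In the other classes A951-named cells had nearly the same median share as cells with another single name. The medians were 2.08% and 1.98% in monocyte-like cells (78 and 119 cells), 3.44% and 3.26% in B cell-like cells (50 and 106), and 3.03% and 3.06% in T cell-like cells (25 and 77). In macrophage-like cells the A951 median was 1.74% (10 cells), against 2.30% in the other singly named cells (20), and in the unnamed cluster it was 7.38% (15) against 8.14% (19). Each of these differences was smaller than the quartile range of the cells concerned. With 1 library, whether the neutrophil-like difference departs from that of other classes has no test across animals.

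Cardiomyocyte markers and tag counts differed between the same neutrophil-like cells. The cardiomyocyte marker sum was 287 CPM of non-mitochondrial counts in A951-named, 522 in doublet-named and 56.5 in other singly named neutrophil-like cells. Among cells whose cardiomyocyte level was above the class median, the median share was 5.39% in A951-named cells (84 cells), against 0.984% in other singly named cells (30). At or under it, the median share was 3.35% in A951-named cells (58), against 0.678% in other singly named cells (78). The part of cardiac muscle RNA in the difference between names was not tested. The hashtag library held a median of 3445 tag counts for A951-named neutrophil-like cells, against 108 for those with another single name. The 7 neutrophil-like cells with another single name and a share over 5% had a median of 4713 tag counts, against 98 in the 101 such cells at or under 5%. In A951-named neutrophil-like cells the medians were closer, at 4201 tag counts over 5% (66 cells) and 2969.5 at or under 5% (76 cells). With all classes pooled the median was 72 to 109 tag counts in the 3 ranges up to 5%, 1035 at 5% to 10%, 4520 at 10% to 25%, 4630 at 25% to 50% and 4288 over 50%. At 10% to 25%, 31 of 42 cells were neutrophil-like, and 30 were named A951 and 7 doublet. Over 5%, the unnamed cluster had medians of 115 (13 A951-named cells) and 134.5 (14 other singly named). Other singly named B cell-like cells over 5% had 101 (5 cells). A951-named monocyte-like cells over 5% had 2118.5 (8), and A951-named B cell-like cells 4739 (3). The part of tag loading in the difference between names was not tested.

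The names and the tag counts do not always point to the same tag. All 878 cell barcodes were found in the hashtag library, and the named tag had the highest count in 331 of 331 A951-named cells and 128 of 134 A952-named cells, but in 14 of 114 A953-named and 17 of 247 A965-named cells. When neutrophil-like cells were grouped by their highest tag in place of their name, 37.9% with A951 highest were over 5%, against 21.6% with another of these tags highest. Doublet-named cells were not left out of this grouping, and 18 of the 38 neutrophil-like ones were over 5%. The percents by highest tag and by single name are therefore over different sets of cells. Over all cells grouped by highest tag, again with doublet-named cells, the percent over 5% was not higher with A951 than with A952, A953 or A965 (values below). These percents are given without intervals. The 59 A952-named neutrophil-like cells whose highest tag was A952 had a median share of 0.827%.

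Among the coding transcripts, 5 genes held most of the counts. Summed over all cells, mt-Nd1 had 19.9% of the mt- counts, mt-Cytb 18.6%, mt-Co1 17.1%, mt-Nd4 12.3% and mt-Nd2 9.76%. The other 8 held 4.75% or less each. By complex, the summed shares were 48.0% for the 7 complex I subunits (Nd genes), 18.6% for cytochrome b of complex III, 24.96% for the 3 cytochrome c oxidase subunits and 8.45% for the 2 ATP synthase subunits. The order changed per length of the gene, as GENCODE M21 gives it. Whether counts scale with gene length in this library is not known, so counts per kilobase are no measure of transcript number. Per kilobase, mt-Nd1 (957 bases, mitochondrial positions 2751 to 3707 in GRCm38) stayed first with 747085 counts, and mt-Atp8 (204 bases, 7766 to 7969) came second with 648850. They were followed by mt-Cytb with 582035, mt-Co1 with 397655, mt-Nd2 with 336980 and mt-Nd4 with 318865 counts per kilobase. Adding the counts of the 7 chromosome 1 rows left the first 3 in place but changed the order after them. With these rows mt-Atp6 came next with 493527 counts per kilobase, against 250199 without them, and mt-Co1 had 427666. They were followed by mt-Co3 with 383079, mt-Co2 with 380008 and mt-Nd3 with 349301 counts per kilobase, all above mt-Nd2 and mt-Nd4. The mt-Atp8 gene shares 43 bases with mt-Atp6 and mt-Nd4l shares 7 with mt-Nd4, both on 1 strand, so part of their counts cannot be told apart.

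Low members were low per kilobase as well. The complex I subunit mt-Nd5 had 62874 counts per kilobase, and mt-Nd4l had 20699. The lowest was mt-Nd6 with 5028 counts per kilobase; it is the 1 coding gene on the other strand (13552 to 14070 in GRCm38) and overlaps mt-Nd5 by 14 bases. In CPM of all counts, mt-Nd6 had 25.6 CPM (interval 24.6 to 26.6), against 7015 CPM for mt-Nd1. A count of mt-Nd6 was present in 350 of 878 cells, and in 190 once each cell was thinned to 25000 counts. By class it was 54.1 CPM in NK cell-like cells, 51.5 CPM in T cell-like, 39.4 in neutrophil-like, 24.2 in B cell-like, 16.2 in macrophage-like, 13.2 in monocyte-like and 11.8 in conventional dendritic-like cells. After thinning, 35.6% of T cell-like cells had a count (interval 26.4 to 45.6), against 18.5% of NK cell-like cells (interval 6.30 to 38.1) and 18.8% of neutrophil-like cells (interval 14.4 to 23.7).

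Neutrophil-like cells had a different balance among the coding transcripts. The median share of mt-Co1 in their mt- counts was 11.8% (quartiles 8.10% and 18.1%), against medians of 25.7% in conventional dendritic-, 22.2% in monocyte-, 21.5% in B cell-, 20.7% in T cell-, 18.5% in macrophage- and 16.3% in NK cell-like cells. For mt-Atp8 the median was 2.48% in neutrophil-like cells and 3.93% to 4.77% in the other named classes. They were higher for mt-Cytb (19.8%, against 13.01% to 17.3%), mt-Nd4 (14.1%, against 9.64% to 11.5%) and mt-Nd2 (10.4%, against 7.04% to 9.06%). By complex, the medians in neutrophil-like cells were 50.7% for complex I, 19.8% for III, 20.8% for IV and 7.14% for V, against 45.7%, 16.8%, 27.6% and 9.13% over all cells. Leaving out cells over 25%, the median of mt-Co1 was 12.2% in neutrophil-like and 21.7% in all other cells. The quartile ranges of mt-Co1 overlapped between neutrophil-like cells and NK cell-, macrophage-, monocyte- and T cell-like cells.

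The balance also moved with the share. In neutrophil-like cells mt-Co1 had a median of 20.6% of mt- counts at a share of at most 1%, 11.9% at 1% to 2%, 12.9% at 2% to 5%, 10.1% at 5% to 10%, 9.05% at 10% to 25%, 8.93% at 25% to 50% and 8.23% over 50%. In cells of other classes it was 35.3% at the lowest range (10 cells), 23.4%, 21.3% and 19.6% in the next 3 ranges and 19.8% at 10% to 25% (11 cells). Over 50% it was 8.48% in the 6 cells of other classes, close to the 8.23% of the 6 called neutrophil-like. Over these 12 cells mt-Co1 ran between 5.57% and 12.4%. In the opposite direction, mt-Nd1 was 8.94% of mt- counts in neutrophil-like cells of at most 1% and 22.4% in those of 10% to 25%. Neutrophil-like cells of at most 1% had a median of 296 mt- counts each, so their single percentages are coarse.

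**Figure D5:**
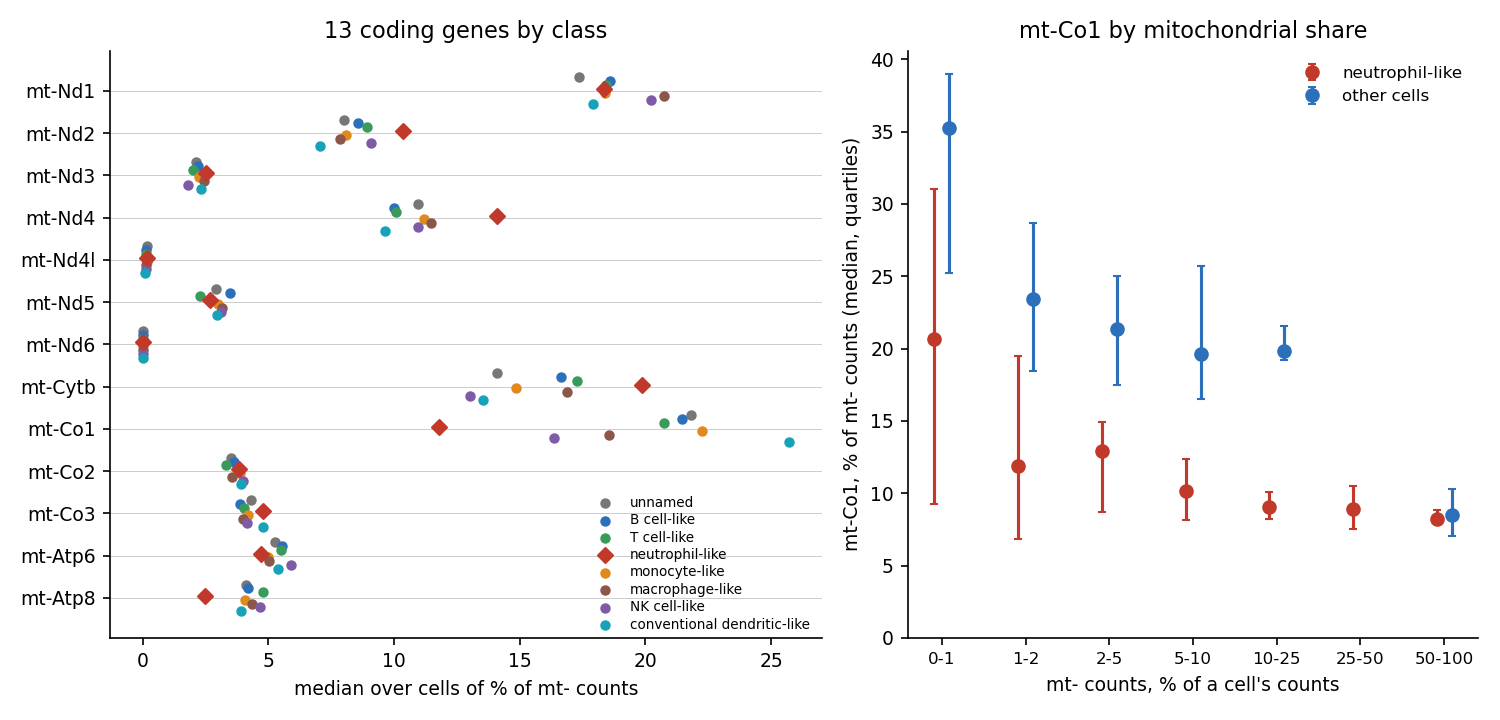
Left, median over cells of the percent of mt- counts for the 13 coding genes by class (diamonds, neutrophil-like cells). Right, percent of mt- counts from mt-Co1 by range of the mitochondrial share, with medians and quartiles, in neutrophil-like cells (red) and other cells (blue); the right-most pair, at 8.23% and 8.48%, nearly coincides, and no other cell lies at 25% to 50%.

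Names differed in balance within the neutrophil-like class as well. The median share of mt-Co1 was 10.0% in A951-named and 14.3% in other singly named neutrophil-like cells, that of mt-Cytb 21.5% and 14.97%, and that of mt-Nd1 19.7% and 12.4%. Quartile ranges overlapped for mt-Co1 (8.09% to 14.7% in A951-named and 8.28% to 25.8% in other singly named cells). On summed counts the values were closer for mt-Nd1 (21.7% and 19.6%) and mt-Cytb (21.9% and 18.0%), and mt-Co1 had 10.2% and 14.5%. The median cell had 2873 mt- counts in A951-named and 456 in other singly named cells. Cells were not matched for share here, so the part of the share in this difference was not tested. Doublet-named neutrophil-like cells were close to the A951-named ones, with 11.3% mt-Co1 and 21.7% mt-Cytb.

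Levels of each gene were next compared between a class and all other cells, as log2 ratios of CPM over summed counts with 1 CPM added; a gene counted as past the fold at an absolute log2 ratio of 1 or more. In neutrophil-like cells 9 of the 13 genes were at least 2-fold higher and none lower, with a median log2 ratio of 1.13, while 8.66% of the 18306 genes compared were at least 2-fold higher and 32.8% lower. The ratio was largest for mt-Nd4, at 9066 CPM in neutrophil-like cells against 3172 CPM in all other cells (log2 ratio 1.51), closely followed by mt-Cytb, at 13698 CPM against 4817 CPM (log2 ratio 1.51). It was near 0 for mt-Co1, with 6468 CPM against 5922 CPM (log2 ratio 0.13). These sums rest on the cells of high share: each cell weighted alike left 2 of the 13 genes past the fold, and leaving out the cells over 25% left 5. Without those cells mt-Co1 was lower in neutrophil-like cells, with 4596 CPM against 5645 CPM in the others.

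In monocyte-like cells 6 of the 13 genes were at least 2-fold lower, with a median log2 ratio of -0.91 (15.7% of genes lower, 4.87% higher). When cells over 25% were left out of both sides, 1 of the 13 was past the fold. B cell-like cells had none of the 13 past the fold in either direction (16.8% of genes higher, 17.8% lower), with a median log2 ratio of 0.22. T cell-like cells had 1 higher, mt-Nd6 (log2 ratio 1.15), where 14.8% of genes were higher and 18% lower; with each cell weighted alike none was past the fold.

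Nuclear genes of the same complexes did not follow the mitochondrial ones in neutrophil-like cells. Of 37 nuclear complex I subunits, 22 were at least 2-fold lower than in all other cells and none higher, with a median log2 ratio of -1.29 and a median of -0.48 over all 18306 genes. The same held for 5 of 9 nuclear subunits of complex III, 6 of 11 of complex IV and 8 of 15 of ATP synthase, with none higher. These shares of 53.3% to 59.5% stand beside 32.8% of all genes that were lower. Ndufa4, listed here with complex I but known to sit in cytochrome c oxidase, had 125 CPM in neutrophil-like cells against 414 CPM in the others, and Cox4i1, a regulatory subunit of cytochrome c oxidase, had 496 CPM against 997 CPM. Cox8a, another of its subunits, stayed within the fold at 681 CPM against 566 CPM. Of the genes that process, modify or degrade mitochondrial RNA, 18 of 26 compared were lower (69.2%) and none higher. Slirp, which with Lrpprc stabilises mitochondrial messenger RNA, had 34.0 CPM against 109 CPM, and Pnpt1, a mitochondrial exoribonuclease, had 0.178 CPM against 11.7 CPM. Of 14 genes of mitochondrial DNA replication and transcription, 6 were lower (42.9%, nearer to the 32.8% of all genes), among them Tfam with 0.254 CPM against 42.3 CPM and Polrmt with 1.31 CPM against 3.69 CPM.

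Summed over a list, nuclear complex I subunits had 3202 CPM of non-mitochondrial counts in neutrophil-like cells (interval 3176 to 3228). The sum was 2579 in the unnamed cluster, 4550 in B cell-like, 5382 in T cell-like, 6319 in monocyte-like, 6372 in NK cell-like, 6924 in conventional dendritic-like and 7862 in macrophage-like cells. The unnamed cluster, with the highest median mitochondrial share, thus had the lowest sum of these nuclear subunits, and macrophage-like cells, with a median share of 1.94%, had the highest. Other classes did not keep this order. Neutrophil-like cells had both a lower median share and a lower sum than B cell- and T cell-like cells. Conventional dendritic-like cells, with the lowest median share, did not have the highest sum.

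Between names within a class, all 13 genes were at least 2-fold higher in A951-named neutrophil-like cells than in other singly named ones, with log2 ratios of 2.05 to 2.98 and a median of 2.43. Of the 9311 genes compared there, 13% were at least 2-fold higher and 13.9% lower. In A951-named cells mt-Nd1 had 17848 CPM (interval 17762 to 17934), against 2720 CPM in the others (interval 2683 to 2757), and mt-Co1 had 8389 CPM against 2022 CPM. All 13 stayed past the fold with each cell weighted alike, with CPM of non-mitochondrial counts and without cells over 25%, where the median log2 ratio was 2.11. Nuclear subunits did not move with them: of the 37 of complex I, 3 were higher (Ndufv1, Ndufv2 and Ndufb3) and 3 lower (Ndufs6, Ndufa8 and Ndufc2), with a median log2 ratio of 0.10. Of the 9 nuclear subunits of complex III 1 was lower (Uqcrc2), and of the 11 of complex IV and the 15 of ATP synthase none was past the fold.

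The same comparison in the other 3 classes gave 0 to 2 of the 13 genes past the fold. None of the 13 was past it in monocyte-like cells (median log2 ratio 0.28, where 6.37% of 12834 genes were higher and 10.1% lower). The A951 side of the monocyte-like cells holds 1 cell of 89.2%. In T cell-like cells none was past the fold either (median log2 ratio 0.54, with 12.7% of 9728 genes higher and 23.4% lower), but 6 were higher with each cell weighted alike. The A951 side there holds 1 cell of 79.7%, and without cells over 25% none of the 13 was past the fold. Of the 13, mt-Nd2 and mt-Nd4 were past the fold in A951-named B cell-like cells (both log2 ratio 1.06, where 10.8% of 9833 genes were higher and 21.1% lower). With each cell weighted alike, 7 of the 13 were past it. The A951 side there holds 2 cells over 50%; without cells over 25%, none of the 13 was past the fold and the median log2 ratio was 0.06.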

How the data were processed

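One pooled transcriptome library and its hashtag library were used, with no replicates. In the deposited transcriptome file the authors give unnormalized estimated counts for each gene in each cell. The hashtag file, as deposited, holds whole counts per tag for 1000000 barcodes. The tools listed, per the submitters' processing notes and without roles, were STAR, STARsolo 2.7.10b, cutadapt 4.1 and R 4.3.1, and the build was GRCm39. Whether reads or molecules were counted, and how reads that match several genes were shared out, was not stated in those notes or the labels.

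Every row starting mt- was a member and all may be named; of nuclear lists, the 4 members with the highest level, members past the fold and check genes may be named. Members and lists were chosen with earlier results of these data known. Counts were scaled to 10000 per cell without the mt- rows and 16 nuclear rows at least 90% identical to them, and log-transformed. Clusters came from 2000 variable genes, 30 components, 15 neighbours and Leiden resolution 1 (scanpy 1.11.5, igraph 0.11.9). A cluster was named when at least 3 markers of a list had 50 CPM or more and at least 2 times their level in the remaining cells. Doublet-named cells stayed in, and no doublet caller was run. Shares have exact Clopper-Pearson and sums exact Poisson intervals (scipy 1.17.1). Ratios used genes with at least 50 counts. The ratio calculation was tested on simulated data. Nuclear copies were found with BLAST+ 2.17.0 at an E-value limit of 1e-20 against GENCODE M21 transcripts of GRCm38, and no coordinates were carried between builds. The alternatives tried were rounding counts down, thinning, other clusterings, other groupings of cells and other weights.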

Additional observations from a re-analysis of the deposited data

How the results depend on the processing

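Of 241 recomputed values for 52 results, 204 stayed within the counting interval (for counts of genes, within 1.5 times) and 37 did not. Because every mt- row is a coding gene, keeping coding genes only gave the values above unchanged. These 16 values could not differ and are counted among the 204. With cells grouped by the highest tag in place of the name, the percent of cells over 5% was 16.9 for A951, 18.0 for A952, 20 for A953 and 17.2 for A965, and 37.9 for A951 and 21.6 for the other tags in neutrophil-like cells. Doublet-named cells were not left out of this grouping, unlike in the values by single name. With only cells whose named tag was highest, the percent over 5% was 14.3 for A953 (14 cells) and 11.8 for A965 (17 cells). Other clusterings gave 46.8% over 5% in macrophage-like cells at resolution 0.5, and in unnamed cells 55.3% at resolution 1.5 and 59.0% with mt- genes kept in the clustering. Without doublet-named cells, 0% of NK cell-like cells were over 5%. With the nuclear copies added, 20.5% of all cells and 12.4% of B cell-like cells were over 5%.

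For complexes I, III, IV and V, the percent of mt- counts was 45.5, 17.01, 28.4 and 9.09 with each cell weighted alike. It was 46.0, 17.5, 27.6 and 8.96 in cells of at most 25%. It was 46.7, 17.8, 26.8 and 8.77 without cells over 50%, and 42.7, 16.2, 29.7 and 11.4 with the nuclear copies added. Of the 13 genes, 2 (each cell weighted alike) and 5 (without cells over 25%) were at least 2-fold higher in neutrophil-like cells. Without cells over 25%, 1 was 2-fold lower in monocyte-like cells, and with each cell weighted alike 0 were higher in T cell-like cells. Between A951-named and other singly named cells, weighting each cell alike gave 7 higher in B cell-like and 6 in T cell-like cells, and leaving out cells over 25% gave 0 in B cell-like cells.

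Alternatives that add nuclear copies, leave out cells over 25% or 50% from composition and ratios or over 5% from marker sums of clusters, or keep only cells whose named tag was highest were chosen after seeing the data. No paired analysis was possible because there is 1 library. Cells of at most 1% hold few mt- counts each, which limits their composition.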
